A study of Mus musculus with 2 samples.

Results

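Endothelial cells line blood and lymphatic vessels, and 10 genes that mark them were followed here in RNA from epithelial cells of the mouse submandibular gland. The genes were Pecam1, Cdh5, Kdr, Tek, Emcn, Vwf, Plvap, Flt1, Eng and Lyve1, taken by the gene name in the scanner files with every probe that carried the name. They had 18 of the 56605 probes for transcripts on the array, and all 10 belonged to the 21346 genes with a probe well above background on at least 1 array. They were listed as markers of the cell type, with earlier results of these data known.

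The cells came from submandibular glands of female C57BL/6 mice (C57BL/6N in the methods), 9 weeks old (young) or 24 months old (aged), and were collected with magnetic beads against EpCAM, an adhesion molecule of epithelial cells. The design gives N=1 for each age, and the labels do not say whether this was 1 mouse or a pool. Each age gave 1 array, so that no difference below has a replicate check, no test was made and no p-value is given. According to the methods, the sort was not complete, and young and aged mice were obtained from different sources, so that age and source cannot be told apart. Both arrays lay on the same slide. RNA was labelled with Cy3 and hybridized to Agilent arrays of 60-base probes.

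Blood vessel endothelium grows and survives on signals from VEGF, received by the kinases encoded by Kdr and Flt1, and from angiopoietins, received by the kinase encoded by Tek. Its cells hold together through VE-cadherin (Cdh5) and PECAM-1 (Pecam1), and they store von Willebrand factor (Vwf) for release at wounds. In salivary glands a dense capillary bed around ducts and acini provides the fluid for saliva. Lymphatic endothelium shares part of this equipment and is told apart by Lyve1, a hyaluronan receptor, by Prox1, the transcription factor of lymphatic identity, and by Flt4, the receptor for VEGF-C.

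The probe sequences in the files show what each spot reads, 5′ to 3′ in lower case. The Pecam1 probe is shown whole because it alone, among the brightest probes of the 10 genes, was not lower on the aged array after scaling. It lies on the minus strand at chr11:106540864-106540923 (mm9, as all probe positions here) and was designed on NM_001032378.
Pecam1: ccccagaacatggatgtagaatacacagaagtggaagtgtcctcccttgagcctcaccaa

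The Lyve1 probe is shown by its first 30 bases because it is the single probe behind the lymphatic marker of the set. It lies at chr7:117994171-117994230 on the minus strand.
Lyve1: cactttgtgtgcctttaacaaatacattat

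Flt1 and Vwf each had 3 probes with signal, which read different transcripts of the gene, and their first 30 bases are shown so that those readings can be told apart. For Flt1, probe 1 was designed on NM_010228 (chr5:148373791-148373850), and probes 2 and 3 were both designed on ENSMUST00000110529 (chr5:148448888-148448947 and chr5:148450688-148450747), all on the minus strand. For Vwf, probe 1 was designed on NM_011708 (chr6:125636551-125636610), probe 2 on ENSMUST00000112253 (chr6:125542106-125542165) and probe 3 on ENSMUST00000139678 (chr6:125586583-125586642), all on the plus strand.
Flt1 probe 1: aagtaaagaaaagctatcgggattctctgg
Flt1 probe 2: tcctcagaacaaaacctgaactgaactgag
Flt1 probe 3: aggaggaatgattgtaccacacaaagtcat
Vwf probe 1: caagtgaggcctgtgcagctacagcggatt
Vwf probe 2: tagttaaacagaacaacagtgaagggcgga
Vwf probe 3: gcacctgtgctgtttcccttaaacatgatt

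The other genes are given by the position of their brightest probe. These were chr8:106668159-106668218 for Cdh5, chr4:94540861-94540919 for Tek, chr3:137093811-137093870 for Emcn and chr2:32537268-32537327 for Eng, all on the plus strand. On the minus strand were chr5:76329309-76329368 for Kdr and chr8:74021877-74021936 for Plvap. The files place each probe within a transcript, and exon and UTR borders were not read, since no annotation of mm9 was used here.

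A signal below is the spot's intensity after background subtraction, given with the error that the scanner software attached to it, and a level is the log2 of the signal after division by the 75th percentile of its array (256 for the young array, 198 for the aged one). All 10 endothelial genes were well above background in the young sample, and 8 of them in the aged sample too. Of these 8 genes, 7 had a lower level on the aged array, by 1.24- to 1.56-fold, and Pecam1 did not. None of the 8 reached the 2-fold difference that the methods set as threshold. Lyve1 passed it by its limit, explained below, and fell at least 2.03-fold, so that 1 of 10 endothelial genes was called lower against 5.14% of all 21346 genes, and 0 were called higher against 2.53%. In RNA from a mixture, fewer cells of a type and less RNA per cell cannot be told apart.

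The receptors of VEGF were both measured with ample signal. Kdr encodes VEGFR-2, the main signalling receptor for VEGF-A in endothelium. Its signal was 419 ± 42.0 in young and 208 ± 21.1 in aged cells, and the level went from 0.71 to 0.07. The log2 difference, aged minus young, was -0.64 ± 0.21, or 1.56-fold lower, which was 3.1 times its error and the lowest among the 8 genes measured on both arrays. Neither array gave a signal well above background for the other 2 Kdr probes, so that this value rests on 1 probe. Flt1 encodes VEGFR-1, which binds VEGF-A tightly and also exists as a soluble form that keeps the ligand from Kdr. Its brightest probe gave 686 ± 68.7 in young and 373 ± 37.5 in aged cells, a log2 difference of -0.51 ± 0.20. The 2 probes on the other Flt1 transcript gave 115 against 63.3, and 79.2 against 45.8. Their log2 differences of -0.49 ± 0.23 and -0.42 ± 0.23 lay within 1 error of the first, so the 3 Flt1 readings did not differ beyond their errors. The remaining Flt1 probe was dim, that is not well above background, on both arrays.

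Tek and Eng are receptors of other vascular signals. Tek encodes TIE2, the angiopoietin receptor. Its signal was 23.2 ± 3.85 in young cells, and 14.1 ± 3.40, not well above background, in aged cells. For such a probe, the bright value was set against the floor of the dim array, its lowest signal marked as well above background (14.3 in the aged sample). The probe's own dim signal was used instead if that was higher. This gives a limit of the fold that takes the bright value as it stands and does not count its error. For Tek this limit was at least 1.25-fold lower, short of the threshold. Eng encodes endoglin, a co-receptor for TGF-beta and BMP9 that is abundant in vessels. It read 112 ± 11.8 and 69.5 ± 7.85, a log2 difference of -0.31 ± 0.22, which was 1.41 times its error. Eng therefore had the smallest of the 7 lower values, and a second Eng probe was dim on both arrays.

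**Figure D1:**
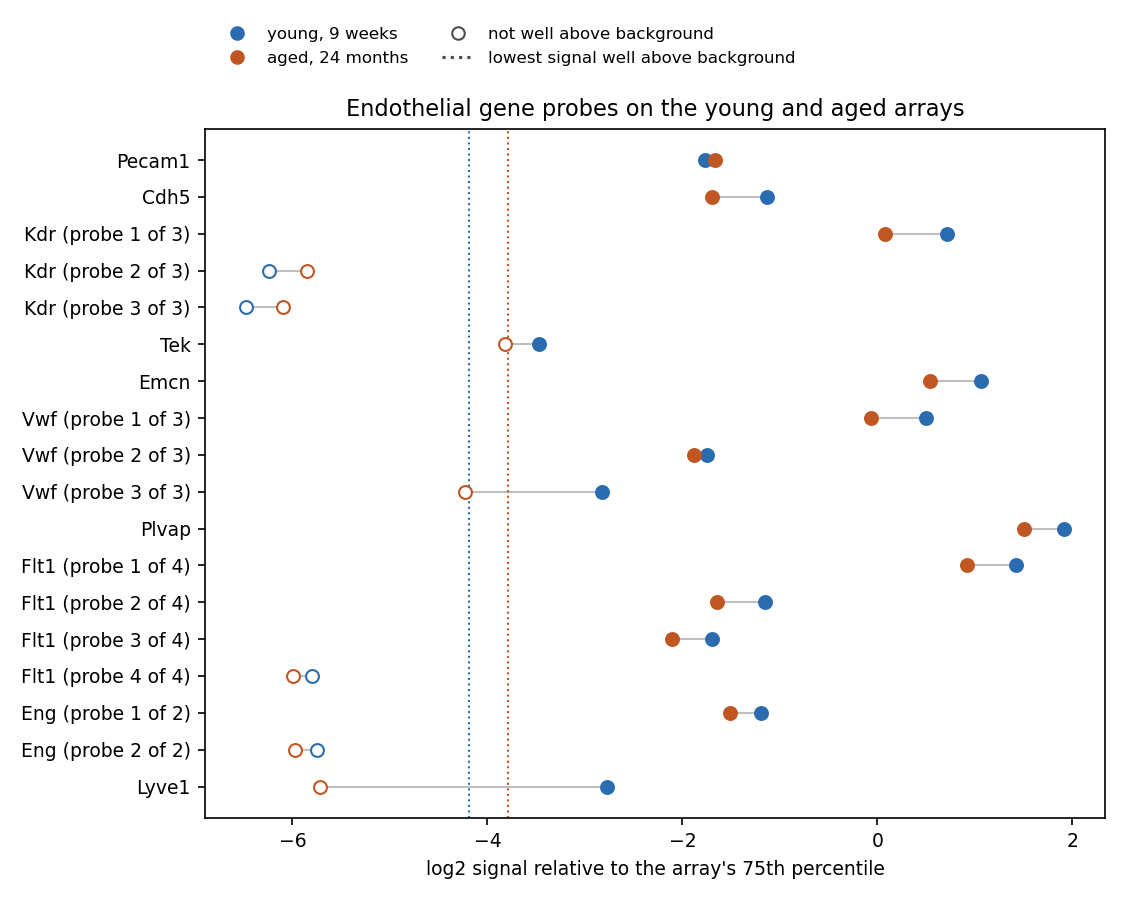
Log2 signal of all 18 probes of the 10 endothelial genes, relative to the 75th percentile of the array, for the young (blue) and the aged (orange) array, with 1 array per age. Open circles were not well above background and the dotted lines mark the lowest signal that was. In 10 of the 11 probes measured on both arrays, all but Pecam1, the aged value lies to the left of the young one, and Lyve1 goes from above the lines to far below them.

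The junction genes went apart. Cdh5, the cadherin that joins endothelial cells to each other and the most specific junction gene of the set, gave 117 ± 12.2 in young and 61.0 ± 7.10 in aged cells. Its level went from -1.13 to -1.70, a log2 difference of -0.57 ± 0.23, or 1.48-fold lower. Pecam1, better known as CD31, sits at endothelial junctions and also on platelets and several kinds of leukocyte. It gave 75.5 ± 8.12 and 62.5 ± 6.94, and after scaling its level was -1.76 in young and -1.66 in aged cells. The log2 difference of 0.10 ± 0.22 was 0.447 times its error and close to the median of 0.09 over the 18745 genes measured on both arrays. Set against Kdr, the Pecam1 difference was higher by 0.74 ± 0.30 on the log2 scale, and set against Cdh5 by 0.67 ± 0.32. The gap was over 2 errors for 5 of the other 7 genes, though barely so for Flt1, and was 1.31 errors for Eng. The errors of the software cover each spot and not the spread between mice.

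Genes of the capillary surface and of storage granules followed Kdr and Cdh5. Emcn encodes endomucin, a sialomucin of capillary and venous endothelium, and read 536 ± 53.7 against 288 ± 29.0, with levels of 1.06 and 0.54. Its log2 difference was -0.52 ± 0.21, or 1.44-fold lower. Plvap encodes the protein of the diaphragms that span pores of fenestrated capillaries. It read 965 ± 96.5 against 563 ± 56.4, a log2 difference of -0.41 ± 0.20, or 1.33-fold lower. Both surface genes were thus well measured on both arrays and lower on the aged array by less than 1.5-fold.

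Vwf, which carries platelets to wounds and is also made by megakaryocytes, had 3 probes that did not give 1 value. Probe 1, the most downstream of the 3, read 363 ± 36.4 in young and 190 ± 19.2 in aged cells, a log2 difference of -0.56 ± 0.21. Probe 2 read 76.1 and 53.8, a log2 difference of -0.13 ± 0.23. Probe 3 read 36.0 in young cells and a dim 10.6 in aged cells, which gives at least 1.95-fold lower. All 3 Vwf probes were lower on the aged array, and the brightest lay between the others.

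Lyve1 was the 1 endothelial gene called lower. It encodes a hyaluronan receptor of lymphatic endothelium that is also found on some tissue macrophages. Its probe read 37.5 ± 4.70 in young cells, well above background, and 3.76 ± 2.87 in aged cells, a signal of about the size of its error. The levels were -2.77 and -5.72, and as the aged value has no reliable size, the fall is given as at least 1.02 on the log2 scale, or at least 2.03-fold. Of all 21346 genes, 9.91% were, like Lyve1 and Tek, well above background on the young array only. The call was close to the threshold, did not count the error of the young signal, and depended on the scaling. It passed under 4 of 7 ways of setting the arrays level, where the limit ran from 1.19-fold with another background correction (normexp) to 2.43-fold with the spike-in controls.

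**Figure D2:**
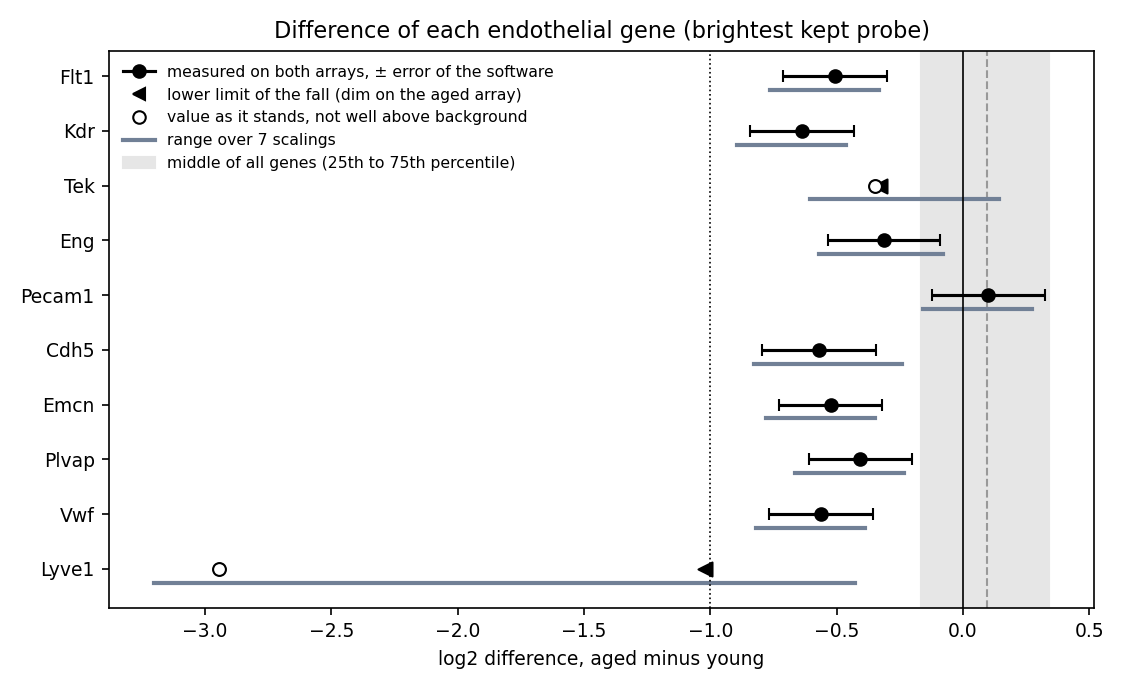
Log2 difference between the aged and the young array for each endothelial gene by its brightest probe, receptors first. Points with bars are measured values ± the error of the software. Triangles mark the limit of the fall for Tek and Lyve1, which does not count errors, and open circles their values as they stand. Grey lines mark the range of the value as it stands over 7 scalings. Kdr, Flt1, Cdh5, Emcn, Plvap and Vwf lie to the left of the band that holds the middle of all genes (-0.17 to 0.34) as drawn for the main scaling, over their whole grey range, whereas Pecam1 lies inside it.

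Across the 8 endothelial genes measured on both arrays, the median log2 difference was -0.51, with values from -0.64 to 0.10. The median over all 18745 genes measured on both arrays was 0.09, and 5% of those genes lay below -0.74 and 10% below -0.48. A difference below 0 was found in 7 of the 8 endothelial genes (87.5%) and in 40.1% of all genes. The share of all genes as low as the gene or lower was 6.50% for Kdr, 7.79% for Cdh5, 7.91% for Vwf, 8.87% for Emcn and 9.32% for Flt1. It was 12.4% for Plvap and 16.1% for Eng, and 50.6% for Pecam1. Each single gene was therefore within the range where many other genes lay, and they stood near each other in it. The 7 lower genes spanned 0.32 on the log2 scale, against errors of 0.20 to 0.23 for each, so that no order among them was resolved. In 5 of the 7 the difference was over 2 times its error.

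The scalings acted in 2 ways. Centring on medians, on spike-in controls or on another percentile moves every gene by 1 constant, whereas quantile normalization, loess and normexp move genes unequally. Relative to the main scaling, the median of all genes moved by 0.17 when arrays were centred on their medians, by -0.26 with the spike-in controls, by -0.11 with the 75th percentile of the probes detected (well above background) by both arrays, and by -0.14 with loess. Measured from the median of all genes, the median of the 10 endothelial genes was -0.57 under the main scaling, which the constant shifts cannot alter, and between -0.54 and -0.53 under quantile normalization, loess and normexp. Kdr, Flt1, Eng, Cdh5, Emcn, Plvap and Vwf stayed below 0 under all 7 scalings. Kdr ranged from -0.89 to -0.46 and Cdh5 from -0.83 to -0.24. Pecam1 was below 0 under 2 of 7, with a range of -0.16 to 0.27. Cdh5, Tek and Lyve1 moved most with normexp, which took Cdh5 to -0.24, Tek to 0.14 and Lyve1 from -2.94 to -0.43 as the values stand. The other endothelial genes moved most with the spike-in controls.

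Other genes of blood endothelium gave a similar but wider picture. Of a list of 25, 24 were kept, with 18 measured on both arrays. The median of those 18 was -0.39 with 12 of them below 0, against 40.1% of all genes measured on both arrays. The genes called lower were 2 of the 24, against 5.14% of all 21346 genes, a share that also applies to the lists below. They were Rasip1, a regulator of vessel lumen formation, with a log2 difference of -1.07 ± 0.24, and Erg, a transcription factor that maintains endothelial identity, which fell at least 2.42-fold. No gene of the list was called higher, against 2.53% of all genes. Values near those of Kdr were found for Robo4 (-0.85), Cd93 (-0.68), Ptprb (-0.62) and Egfl7 (-0.61), all known for expression in vessels. The list also held values on the other side, among them Gpihbp1, which anchors lipoprotein lipase in capillaries (0.51), Sox17, a factor of arterial endothelium (0.49), and Nos3, the endothelial nitric oxide synthase (0.02). Clec14a was the only gene of the list dim on both arrays. The count of called genes ran from 0 with normexp to 5 with the spike-in controls.

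Lymphatic endothelium was marked poorly in these cells. Of 10 lymphatic genes, Lyve1 included, 6 were dim on both arrays, namely Prox1, Flt4, Reln, Mmrn1, Foxc2 and Itga9. Prox1 and Flt4, which define the cell type together with Lyve1, thus gave no reading at either age. Lyve1 and Ccl21a, a chemokine that draws dendritic cells and T cells toward lymphatics, were read on the young array only. Ccl21a went from a level of -1.03 to -4.02 and fell at least 6.79-fold, with the reservation that the Ccl21 genes are nearly identical copies and a probe may read several. Pdpn and Nrp2, which epithelial cells can also express, had log2 differences of 0.29 and 0.24, and a second, dimmer Nrp2 probe had -1.68. Lyve1 and Ccl21a were thus both read in young and dim in aged cells, and dim probes for Prox1 and Flt4 give no reading either way. Whether the Lyve1 and Ccl21a signals came from lymphatic cells was not tested.

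Genes of tissue macrophages, the other known source of Lyve1, were lower in aged cells as well. All 13 macrophage genes measured on both arrays were below 0, with a median of -1.23, and 10 of the list of 14 were called lower (Adgre1, Cd68, Mrc1, Cd163, Fcgr1, C1qa, C1qb, C1qc, Lyz2 and Folr2). Their summed level, in units of the 75th percentile, was 209 in young and 109 in aged cells. The brightest genes in this sum were Lyz2, with a log2 difference of -1.91, and Itgam, with -0.05. Mrc1, which LYVE-1-bearing macrophages are known to carry, had -1.88, Cd163 -1.86 and Adgre1 -1.36, and Timd4 was at least 1.02-fold lower. None of the 14 was dim on both arrays. The part of macrophage RNA in the Lyve1 difference was not tested.

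Other cells that share single endothelial genes were read in the same way. Of 8 platelet and megakaryocyte genes, which bear on Vwf and Pecam1, Itga2b, Ppbp, Gp1ba and Treml1 were dim on both arrays, Pf4 had -1.85 and Gp9 was at least 2.48-fold higher. Gp6 had 0.37, and Gp1bb was well above background in young cells only, with no fold to give. The summed level of this list was 5.19 in young and 1.76 in aged cells, nearly all of it Pf4, and without Pf4 it was 0.210 and 0.379. Whether the Pf4 signal came from platelets was not tested. The 4 lymphocyte genes measured on both arrays had a median of -0.74. The part of these cells in the values of Vwf and Pecam1 was not tested. The 10 endothelial genes had a summed level of 13.01 in young and 9.26 in aged cells, and the other blood endothelial genes 22.2 and 18.5.

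The signals and receptors around the endothelial genes were also measured. Of 15 vascular receptors and co-receptors, Kdr, Flt1, Tek and Eng among them, 14 were kept, 0 were called in either direction, and the median of the 12 measured on both arrays was -0.41. Nrp1, a VEGF co-receptor, had -0.62 and a second probe -1.01, and Tie1, the partner of TIE2, had -0.55. Acvrl1, the kinase that works with endoglin, had 0.22 and Notch1 had 0.18. Of 15 vascular ligands, 10 were kept, and 2 were called lower, both close to the threshold. These were Jag1, a Notch ligand, at 2.001-fold, and Esm1, a secreted product of sprouting tip cells, at 2.015-fold. The ligands of Kdr and Flt1 did not go one way, with Vegfa at 0.24, Vegfb at 0.23, Pgf at -0.23 and Vegfc at -0.88. Other Vegfa probes had 0.41, -0.09 and -0.48, so that the sign for Vegfa depended on the probe. For Tek, Angpt1 had -0.09 and Angpt2 had 0.19, and Apln, Dll4, Gdf2, Bmp10 and Angpt4 were dim on both arrays.

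Transcription factors of endothelium held more called genes than any other endothelial list. Of 15, 11 were kept, 6 were called lower and 0 higher, and the median of the 7 measured on both arrays was -1.19. The 6 were Lyl1 (-2.11), Fli1 (-1.36), Hey1 (-1.27), Klf2 (-1.19), Nr2f2 (-1.14) and Erg, the last by its limit. Lyl1, Fli1 and Klf2 are known from blood cells as well, Hey1 is a Notch target in many tissues, and Nr2f2 also marks stroma. Sox17 had 0.49 and Ets1 0.10, and Tal1, Hey2, Prox1 and Foxc2 were dim on both arrays. The genes by which activated endothelium binds leukocytes showed no call in either direction among the 7 kept of 9. Selp, stored with Vwf in the same granules, was at least 1.62-fold lower, Ackr1, a chemokine receptor of venules, was at least 1.68-fold higher, and Vcam1 had 0.43.

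**Figure D3:**
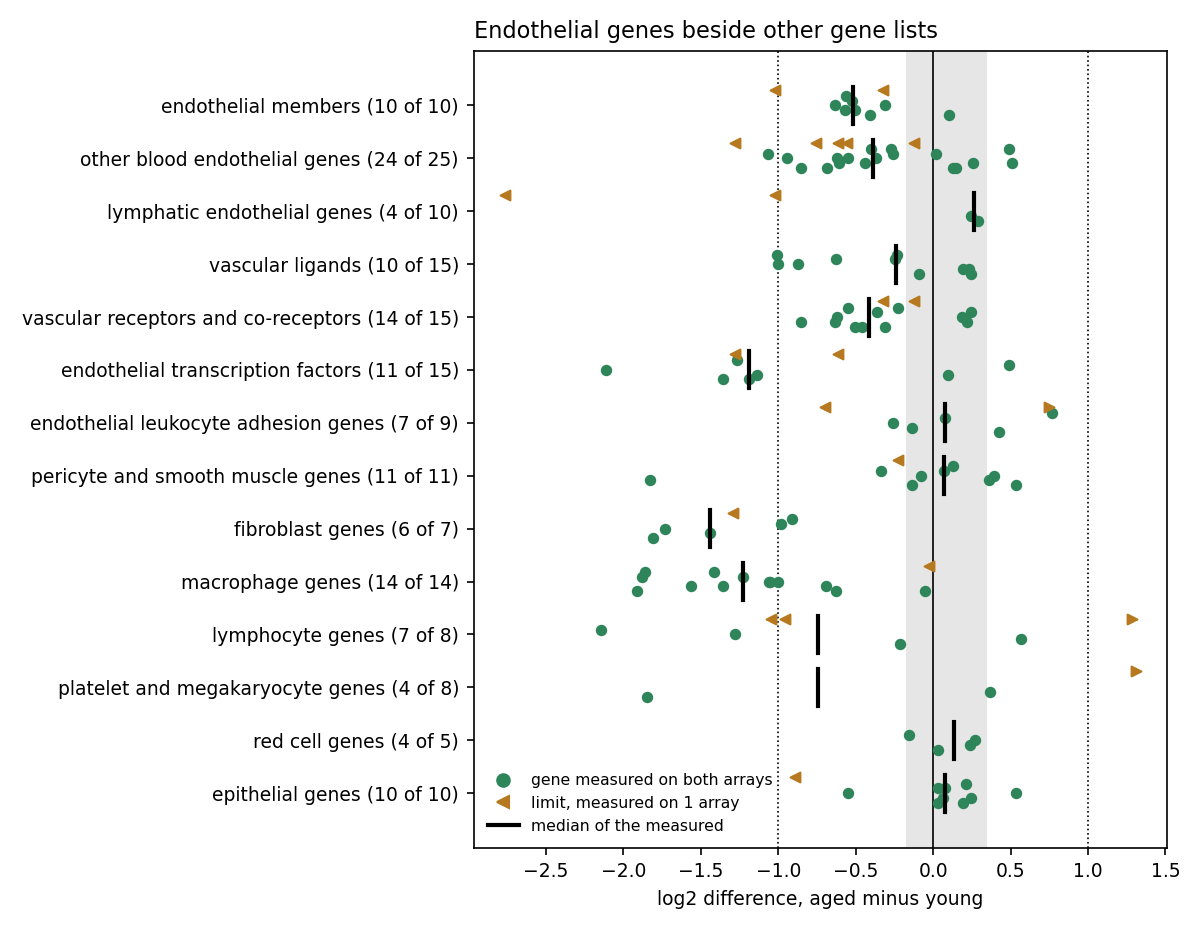
Log2 difference between the aged and the young array for 14 gene lists, with the number of genes kept of the number in each list. Green dots are genes measured on both arrays, orange triangles are limits for genes measured on 1 array, black bars are medians of the green dots, the grey band holds the middle of all genes and dotted lines mark 2-fold. The endothelial genes cluster near -0.51 with Pecam1 to the right, the macrophage and fibroblast medians lie beyond -1, and the epithelial and the pericyte and smooth muscle medians lie at 0.07.

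The cells that surround vessels and the sorted cells themselves give the frame for these values. Of 11 pericyte and smooth muscle genes, all kept, the median of the 9 measured on both arrays was 0.07 and 1 was called lower, Myh11 at -1.83, whose probes did not agree. Rgs5 was low on both arrays, with levels of -3.17 and -3.30, and Pdgfrb and Abcc9 were well above background on the young array only. The part of other cell types in the brighter genes of this list was not tested. The probes of Acta2 did not agree either, with -0.08 by the brightest and -1.96 by another. By 1 more, well above background on the young array only, Acta2 was at least 4.31-fold lower. Fibroblast genes were lower, with 4 of 7 called (Col1a1, Col1a2, Col3a1 and Pdgfra) and a median of -1.44 over the 5 measured on both arrays. The 4 red cell genes kept had a median of 0.13 with 0 called. The epithelial genes had a median of 0.07 with 0 of 10 called, with Epcam at 0.20 and Cdh1 at 0.06. Of the 9 measured on both arrays 1 was below 0, Cldn4 at -0.55. Krt19, well above background on the young array only, was at least 1.855-fold lower. The summed epithelial level was 521 in young and 581 in aged cells, and Krt18 and Krt8 were the brightest genes in it. By their medians, the endothelial genes thus lay below the epithelial list and above the macrophage and fibroblast lists, and none of these differences between lists was tested.

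The promoters of 5 endothelial genes (Eng, Emcn, Tek, Kdr and Flt1) were found in a RefSeq table (GRCm38.p6). The 250 bases before the start of each gene were searched on both strands for CAGGAA and CCGGAA, forms of the core bound by ETS factors, the family of Erg and Fli1. CAGGAA was found in 2 of the 5, Emcn and Tek, and in 25.7% of all 32851 promoters, and CCGGAA in 1, Kdr, and in 3952 of all promoters. The stretches below are shown because Erg and Fli1 were called lower and these 3 promoters hold the letters searched. They lie at chr4:94739218-94739247 (plus strand) for Tek, chr3:137340999-137341028 (plus strand) for Emcn and chr5:75978591-75978620 (minus strand) for Kdr, and capitals mark the match, which reads on the opposite strand in each.
Tek: atacccctattgTTCCTGaaaatgctgacc
Emcn: aaaaaaaagaagTTCCTGtaaggggctgaa
Kdr: cgcccggcacagTTCCGGggtagtggggga

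A match of 6 letters is a description of these windows and says nothing of binding in these cells. Eng and Flt1 held neither form, which says only that these letters are not in their windows.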

How the data were processed

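RNA from EpCAM-sorted submandibular gland cells was measured on 2 Agilent 1-colour arrays, 1 per age. The authors deposited scanner files from Feature Extraction (12.0.3.1 in the submitters' processing notes), whose intensity values were background-subtracted and not scaled between arrays, and a table made with GeneSpring in which the same intensity was divided by 1 constant per array (229 and 176, all 62976 spots within 0.1%). Annotation in the files is on NCBI37 (mm9).

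Log2 of the processed intensity minus log2 of the array's 75th percentile over 59305 non-control spots was used. Outlier spots (90 and 93) were left out, no spot was saturated, and spots of 1 probe were averaged. Dim probes, those that neither array showed well above background, were dropped, and each gene was read by its brightest remaining probe. The error of a difference was propagated from the software's error of each signal. It exceeds the SD of 0.03 between repeat spots (271 probes) and does not cover mice. On the young array 55.4% of spots and on the aged array 50.8% were well above background, which limits what can be read of dim genes. The threshold of 2-fold follows the methods.

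All 10 endothelial genes are named with every probe, and from the other lists the called genes behind a count and markers dim on both arrays, with 1 further gene not reported here. Some other genes of the lists were named after their values were seen. Members and lists were chosen with earlier results of these data known. Symbols were updated through a RefSeq table (33767 of 56605 probes matched, 877 renamed). Probes were not set against proteins, as no protein table was used here. Alternatives were median centring, the 75th percentile of the probes detected by both arrays, quantile, loess (span 0.7, 3 iterations), spike-in controls, normexp (offset 50), other filters, outliers kept, probe means, the deposited table and 1.5-fold. R 4.3.3 with limma 3.58.1, Python 3.11.15, numpy 2.4.6, pandas 2.3.3 and matplotlib 3.10.9 were used, and the steps were tested on simulated data.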

Additional observations from a re-analysis of the deposited data

How the results depend on the processing

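Lyve1, the called endothelial gene, kept its sign under every alternative that kept it, called genes of the other lists were recomputed as counts only, and of the values for the set and the lists 43 stayed near their main value and 16 moved. The number of endothelial genes called lower, 1 in the main setting, was 2 at 1.5-fold and 0 with median centring, quantile normalization, normexp or the filter for both arrays, which removes Lyve1 and Tek. The median of the 10 endothelial genes, -0.51, was -0.77 with the spike-in controls. The number of other blood endothelial genes called lower, 2 in the main setting, was 9 at 1.5-fold, 5 with the spike-in controls, 3 with the 75th percentile of probes detected by both arrays, 1 with median centring, quantile normalization or the filter for both arrays, and 0 with normexp. The number of lymphatic genes called lower, 2 in the main setting, was 1 with median centring, quantile normalization or normexp and 0 with the filter for both arrays. Apart from the filter, whose construction takes out genes dim on 1 array, the cause was not tested. Over all genes, 539 were called higher and 1098 lower in the main setting, 802 and 867 with median centring, 671 and 992 with quantile normalization, 348 and 1619 with the spike-in controls, 442 and 1276 with the 75th percentile of probes detected by both arrays, 483 and 1212 with loess, and 182 and 297 with normexp. Signal over background limits Lyve1 and Tek, for which the data give a limit of the fall, with errors not counted, and no size. No paired analysis was possible because each age has 1 array.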
